A study of Mus musculus with 18 samples.

Results

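Flt3, Kit, Cd34, Ly6a, Meis1 and Gata2 are 6 genes best known from blood stem and progenitor cells. They were followed here in sorted B cells of mouse bone marrow with 1 or both alleles deleted of Smchd1, which encodes a chromatin protein. They were found by symbol in both raw-count tables, 1 row each, and are 6 of 25965 rows. The data came from 18 RNA sequencing libraries of polyA RNA, each from a separately numbered animal. Marrow of the femurs of C57BL/6 mice aged 12 to 16 months was sorted for CD45.2+ B220+ Mac1- cells. The animals named del/del below were Smchd1[del/del] Vav.Cre[T/+], with 5 female and 4 male libraries. The animals named het were Smchd1[del/+] Vav.Cre[T/+], again with 5 female and 4 male libraries. All groups thus carried Vav-Cre, a recombinase expressed throughout the blood lineages, and at least 1 deleted Smchd1 allele, so that no library was of an animal with both alleles intact. The comparisons ask whether loss of the remaining allele changed any of the 6 genes, in each sex and over both, and whether the sexes differed.

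Blood stem cells and their early offspring are recognised by surface receptors and by the transcription factors that keep them undifferentiated, and most of these genes are shut down as a cell becomes a B cell. FLT3 and KIT are receptor tyrosine kinases for FLT3 ligand and stem cell factor, CD34 is a sialomucin, and Ly6a encodes SCA-1, a small lipid-anchored surface protein used to sort mouse stem cells. MEIS1 is a homeodomain protein that binds DNA with PBX and HOX partners, and GATA2 is a zinc finger factor. Several of them are also used outside stem cells: FLT3 on common lymphoid progenitors and dendritic cells, KIT and GATA2 in mast cells, CD34 on endothelium, and SCA-1 on many lymphocytes, where interferon raises it.

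Ly6a lies in a cluster of related genes, so its sequence is shown first, beside that of the relative it shares a coding stretch with, Ly6i. These are the first 150 bases of each coding sequence in GENCODE M21 (build GRCm38, chromosome 15, 5′ to 3′). Capitals mark the bases covered by 50-base words present in both genes, which run from position 50 to position 129, counted from 1 at the start codon, of coding sequences of 405 bases.
Ly6a: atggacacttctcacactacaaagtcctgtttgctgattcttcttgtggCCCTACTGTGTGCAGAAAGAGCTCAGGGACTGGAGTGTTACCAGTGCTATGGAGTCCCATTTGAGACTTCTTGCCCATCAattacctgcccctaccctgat
Ly6i: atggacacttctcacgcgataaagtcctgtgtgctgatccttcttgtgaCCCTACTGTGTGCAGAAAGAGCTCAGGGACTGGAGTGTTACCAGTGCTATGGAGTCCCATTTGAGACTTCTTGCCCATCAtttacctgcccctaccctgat
Of 1297 distinct 50-base words in the annotated Ly6a transcripts, 246 (19.0%) also occur in other genes, 195 of them in Ly6c1 and 31 in Ly6i. Both relatives were low in these cells. Ly6i had at most 0.432 CPM in any library, where CPM is the read count scaled to library size with TMM factors within a sex. Ly6c1 had at most 5.54 CPM, against a lowest Ly6a level of 24.9 CPM. For Meis1, 17.0% of words are shared, among others with Gm16140 and Gm37818, which are annotated over Meis1 itself, and Gm16140 had 2 reads in all 18 libraries together. Kit and Gata2 share no word with another gene, and Flt3 and Cd34 share 0.0490% and 2.14%.

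Total counts lay between 9788112 and 29405395 reads. In males the del/del libraries had 19748770 to 22614546 reads and the het libraries 9788112 to 19958091, so depth went with genotype there. Smchd1, the deleted gene, was at 128 to 174 CPM in female del/del libraries and 235 to 271 CPM in female het libraries, and at 163 to 197 CPM in male del/del libraries and 274 to 324 CPM in male het libraries, with no overlap in either sex. The B cell marker Cd79a was high in all libraries, at 1037 to 1576 CPM. Of genes used to mark long-term stem cells, Procr had 0 to 10 reads, Mecom 0 to 5 and Fgd5 0 to 7 reads per library, and these had 0 reads in 8, 9 and 8 of the 18 libraries. Other genes of the stem cell list had reads in every library: Slamf1 at 2.28 to 17.5 CPM in female del/del libraries and 4.19 to 12.6 CPM in female het libraries, and at 8.18 to 23.4 CPM in male del/del libraries and 8.26 to 25.2 CPM in male het libraries, Erg at up to 91.3 CPM and Hlf at up to 28 reads (Procr, Mecom, Fgd5, Slamf1 and Hlf were chosen after their values were seen). The levels below are levels of genes and not a count of stem cells. Female del/del library 2 stood apart, and not for the 6 genes alone. It was the lowest of the 10 female libraries for Kit, Cd34, Ly6a and Gata2 and the second lowest for Flt3 and Meis1, with a total of 24188959 reads. Among the gene lists read below, it had the lowest female sum for mature B cell (6081 CPM), myeloid (999.7) and T and NK cell genes (92.19). The same held for mast cell and basophil (10.71) and CD34 family and ligand genes (362.9). It had the highest female sum for endothelium and stroma genes (333.1). For early B cell genes (6547) it lay above all female het libraries. Since these are bulk samples, fewer cells of a type and less RNA per cell cannot be told apart.

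All 6 genes were detected in all 18 libraries, from 5 reads (Gata2) to 3783 reads (Ly6a). Per kilobase of annotated exon, Ly6a was the highest of the 6 in each group, at 58.4 ± 25.5 CPM per kilobase in female del/del libraries, 37.3 ± 8.0 in female het libraries, 125 ± 24.2 in male del/del libraries and 83.8 ± 14.7 in male het libraries (mean ± SD, n = 5, 5, 4 and 4). Flt3 came next, with 7.42 ± 2.48, 6.04 ± 1.19, 4.59 ± 0.635 and 3.29 ± 0.553 CPM per kilobase in the same groups. Kit followed, with means between 1.43 and 1.77 CPM per kilobase. Group means were 0.530 to 0.700 CPM per kilobase for Meis1, 0.346 to 0.671 for Cd34 and 0.248 to 0.463 for Gata2. The order of Meis1 and Cd34 was not the same in all groups: Meis1 was above Cd34 in female del/del libraries by more than the SD of either (0.700 ± 0.104 and 0.346 ± 0.152), and in the other groups these neighbours differed by less than 1 SD of Cd34. The spread between animals was wider than read counting alone gives in each group, except for Kit in male del/del libraries (5.63% against 6.04%). For Ly6a the coefficient of variation in female del/del libraries was 43.7% against 2.76% from counting alone. Meis1 was at 14.9% against 7.86% in the same libraries.

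**Figure D1:**
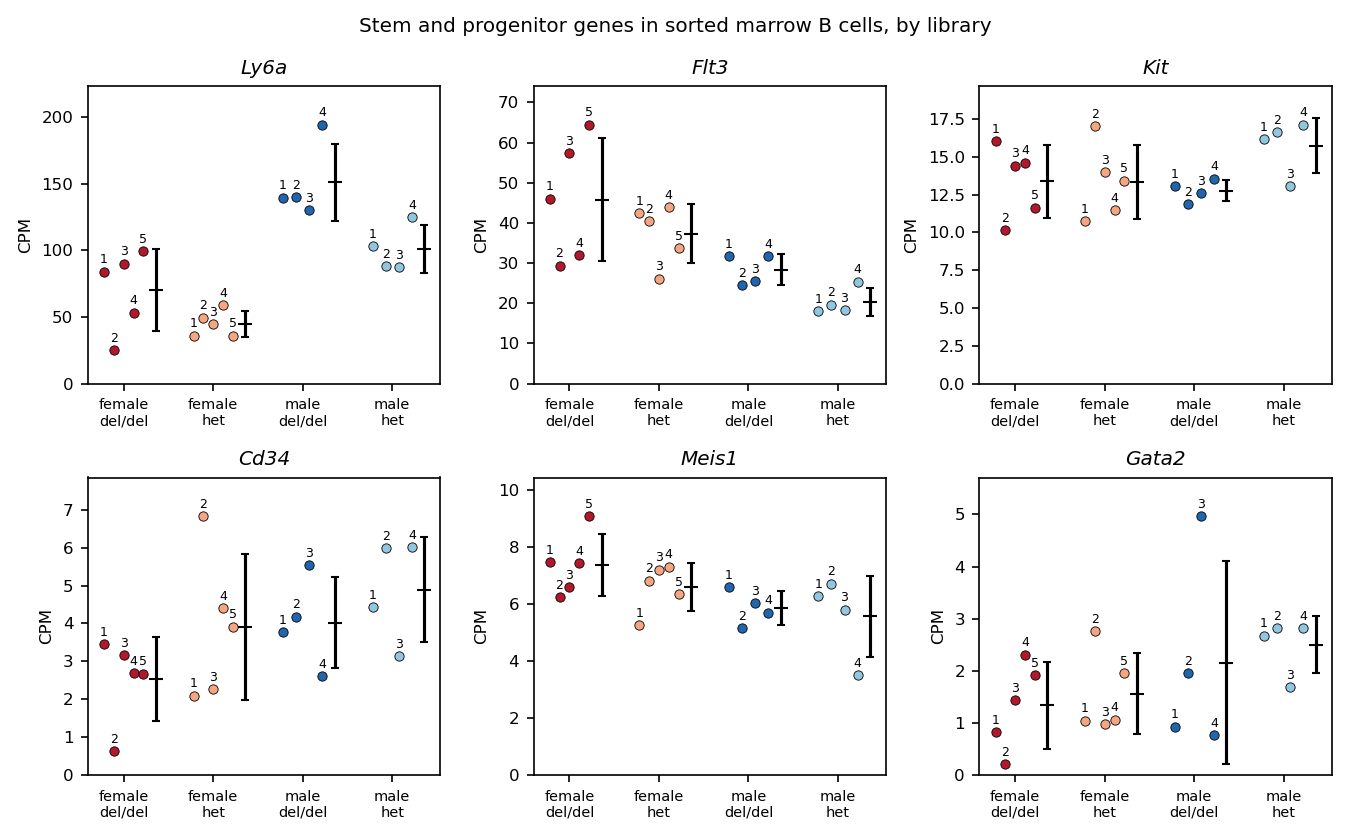
CPM of the 6 genes in each library (y axis, from 0), with numbered points for replicates and a bar for mean ± SD; within each sex the del/del group stands left of its het group. The 4 male del/del libraries are above all 4 male het libraries for Ly6a (130 to 194.2 against 87.4 to 125 CPM), and female del/del replicate 2 is at or near the bottom for every gene.

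Ly6a was the gene of the 6 with the largest difference between genotypes in the both-sex fit, but it did not pass the test over all genes. Ly6a (ENSMUSG00000075602, chromosome 15, 74994878 to 74997634, minus strand, mm10) was at 140, 140, 130 and 194.2 CPM in male del/del libraries 1 to 4, against 103, 88.2, 87.4 and 125 CPM in male het libraries 1 to 4. Every male del/del library thus exceeded every male het library, a pattern that 193 of 13413 tested genes (1.44%) shared in that direction. In female del/del libraries 1 to 5 it was at 84.0, 24.9, 90.0, 53.2 and 99.4 CPM, against 35.9, 49.5, 44.6, 58.6 and 35.9 CPM in female het libraries 1 to 5. Here 3 del/del libraries lay above all het libraries and library 2 lay below all of them; 0.830% of genes tested in females had all del/del above all het libraries, and none of the 6 did. The log2 fold change, del/del over het, was 0.58 in males (SE 0.15, 95% interval 0.25 to 0.91, unadjusted p = 0.00303, adjusted p = 0.631), 0.65 in females (SE 0.29, interval 0.01 to 1.29, unadjusted p = 0.0464, adjusted p = 0.975) and 0.62 over both sexes (SE 0.19, interval 0.23 to 1.02, unadjusted p = 0.00383, adjusted p = 0.287), by edgeR's quasi-likelihood test with Benjamini-Hochberg adjustment over all genes tested.

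Other settings moved Ly6a in both directions. In females the log2 fold change was 0.25 (SE 0.27) with the level of plasmacytoid dendritic cell genes as a covariate, and it changed sign, to -0.17 (SE 0.27), with the level of interferon genes, a covariate added after the data were seen. Over both sexes it was 0.41 (SE 0.20) and 0.56 (SE 0.21) with these covariates, and leaving out 1 library gave 0.43 to 0.70 in males and 0.49 to 0.87 in females. The threshold was passed in 2 refits. With male animals of nearest number taken as pairs, a pairing the labels do not state, the log2 fold change in males was 0.58 (SE 0.06, adjusted p = 0.0311, edgeR). Any pairing would put del/del higher in 4 of 4 pairs, because the male groups did not overlap. Without female del/del library 2 the value over both sexes was 0.73 (SE 0.13, adjusted p = 0.00708, edgeR). The Ly6a level of that library was the lowest of the females, so leaving it out raised the value by construction. With any other library left out, the adjusted p over both sexes lay above the threshold of 0.05, and its values ran to 0.559.

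Flt3 (ENSMUSG00000042817, chromosome 5, 147330741 to 147400489, minus strand) had higher means in del/del libraries of both sexes without passing the test. In male del/del libraries 1 to 4 it was at 31.7, 24.4, 25.5 and 31.7 CPM, against 18, 19.6, 18.3 and 25.3 CPM in male het libraries. The groups met in a single place, since del/del library 2 was below het library 4. In female del/del libraries 1 to 5 it was at 46.0, 29.3, 57.3, 32.0 and 64.4 CPM, against 42.3, 40.4, 26.1, 43.8 and 33.7 CPM in female het libraries. Again 3 del/del libraries, the same numbers 1, 3 and 5 as for Ly6a, lay above all het libraries, while libraries 2 and 4 lay among them. The log2 fold change was 0.48 in males (SE 0.14, interval 0.18 to 0.78, unadjusted p = 0.00526, adjusted p = 0.827), 0.30 in females (SE 0.22, interval -0.17 to 0.77, adjusted p = 0.975) and 0.38 over both sexes (SE 0.14, interval 0.08 to 0.68, unadjusted p = 0.0163, adjusted p = 0.553) by edgeR. FLT3 ligand had 24.7 to 42.3 CPM in female del/del libraries and 20.5 to 35.2 CPM in female het libraries, and 34.4 to 52.1 CPM in male del/del libraries and 25.3 to 48.2 CPM in male het libraries, with overlap in both sexes (Flt3l, chosen after its values were seen).

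Kit (ENSMUSG00000005672, chromosome 5, 75574916 to 75656722, plus strand) did not pass the test in either sex. In male del/del libraries 1 to 4 it was at 13.1, 11.9, 12.6 and 13.6 CPM, against 16.1, 16.6, 13.1 and 17.1 CPM in male het libraries. Male het library 3 was within the del/del range, and the other 3 het libraries were above it. In female del/del libraries 1 to 5 Kit was at 16.1, 10.1, 14.4, 14.6 and 11.6 CPM, against 10.7, 17.0, 14.0, 11.5 and 13.4 CPM in female het libraries, which is full overlap apart from library 2. The log2 fold change was -0.30 in males (SE 0.11, interval -0.54 to -0.06, unadjusted p = 0.0205, adjusted p = 0.9998), 0.01 in females (SE 0.16, interval -0.34 to 0.36) and -0.13 over both sexes (SE 0.11, interval -0.35 to 0.09, adjusted p = 0.832, edgeR). Kitl, which encodes its ligand, stem cell factor, was at 0 to 25 reads per library (also chosen after its values were seen).

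Cd34 (ENSMUSG00000016494, chromosome 1, 194938821 to 194961292, plus strand) was low, with 15 to 125 reads per library. Female del/del libraries 1 to 5 had 3.46, 0.633, 3.17, 2.68 and 2.68 CPM, against 2.09, 6.83, 2.27, 4.41 and 3.92 CPM in female het libraries. Male del/del libraries 1 to 4 had 3.76, 4.18, 5.54 and 2.62 CPM, against 4.42, 5.98, 3.13 and 6.02 CPM in male het libraries. The groups overlapped in both sexes, with library 2 of the females and library 4 of the males below every het library of their sex. The log2 fold change was -0.61 in females (SE 0.42, interval -1.52 to 0.30), -0.28 in males (SE 0.27, interval -0.89 to 0.33) and -0.45 over both sexes (SE 0.27, interval -1.02 to 0.12, adjusted p = 0.801, edgeR).

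The transcription factors Meis1 and Gata2 did not pass either. Meis1 (ENSMUSG00000020160, chromosome 11, 18880430 to 19018958, minus strand) was at 7.48, 6.24, 6.61, 7.45 and 9.09 CPM in female del/del libraries 1 to 5, against 5.27, 6.83, 7.21, 7.32 and 6.34 CPM in female het libraries. In male del/del libraries 1 to 4 it was at 6.60, 5.15, 6.03 and 5.70 CPM, against 6.27, 6.72, 5.80 and 3.52 CPM in male het libraries. In females del/del libraries 1, 4 and 5 lay above all het libraries and the other 2 among them, and in males all del/del libraries lay within the het range. Over both sexes its interval was the narrowest of the 6 genes except that of Kit, at 0.12 on the log2 scale (SE 0.12, interval -0.13 to 0.37, adjusted p = 0.848, edgeR), 0.16 in females (interval -0.18 to 0.50) and 0.07 in males (interval -0.38 to 0.52).

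Gata2 (ENSMUSG00000015053, chromosome 6, 88193891 to 88207030, plus strand) was the lowest, with 5 to 112 reads per library. Female del/del libraries 1 to 5 had 0.826, 0.211, 1.43, 2.31 and 1.91 CPM, against 1.05, 2.77, 0.982, 1.06 and 1.96 CPM in female het libraries. Male del/del libraries 1 to 4 had 0.929, 1.96, 4.96 and 0.770 CPM, against 2.67, 2.82, 1.68 and 2.81 CPM in male het libraries. In females 2 del/del libraries lay below all het libraries, and the male del/del group held both the lowest and the highest male library. Its log2 fold change was -0.19 in females (SE 0.51, interval -1.30 to 0.91), -0.20 in males (SE 0.53, interval -1.38 to 0.98) and -0.20 over both sexes (SE 0.38, interval -0.99 to 0.60, adjusted p = 0.924, edgeR). These intervals are the widest of the 6 genes and hold differences of either sign. Leaving out 1 library gave -0.47 to 0.10 in females and -1.02 to 0.07 in males.

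**Figure D2:**
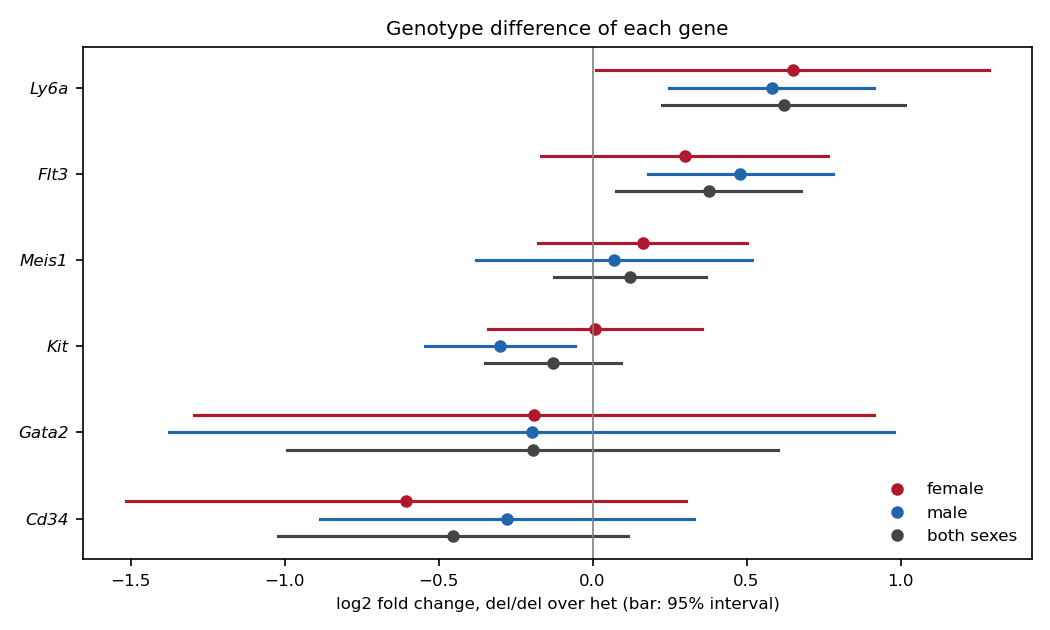
Log2 fold change of each gene, del/del over het (x axis), with 95% intervals as bars, in females, males and both sexes together. The intervals of Ly6a lie above 0 in all 3 comparisons (0.01 to 1.29, 0.25 to 0.91 and 0.23 to 1.02), while those of Cd34 and Gata2 span more than 1 unit and include 0.

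Set against the whole table, none of the 6 genes was called at an adjusted p under 0.05 by edgeR or by DESeq2, in a comparison that called 34 of 13501 genes in females (0.252%), 16 of 13413 in males (0.119%) and 78 of 14017 over both sexes (0.556%). At an unadjusted p under 0.05 there was 1 of 6 in females (Ly6a), 3 of 6 in males (Ly6a, Flt3 and Kit) and 2 of 6 over both sexes (Ly6a and Flt3), where 4.30%, 3.34% and 6.76% of all tested genes had such a p. The direction was not shared: over both sexes 3 of 6 genes were positive, with a median log2 fold change of -0.003 against -0.0005 for all genes tested. In the authors' deposited table the log2 fold change of Ly6a was 0.67 in females (adjusted p = 0.976) and 0.58 in males (adjusted p = 0.643), and none of the 6 had an adjusted p under 0.05 there.

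The difference between genotypes was not shown to depend on sex for any of the 6 genes. The interaction of sex and genotype called 0 of 14017 genes with edgeR (0%), 3 with DESeq2, and 1.45% of genes had an unadjusted p under 0.05, none of them among the 6. The interaction of Ly6a was 0.09 on the log2 scale, female over male (SE 0.39, interval -0.73 to 0.90). That of Kit was the largest in size, at 0.33 (SE 0.21, interval -0.10 to 0.76, adjusted p = 0.9999, edgeR).

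Between the sexes, Flt3 and Ly6a differed in opposite directions. On a scaling common to all 18 libraries, Flt3 was at 26.0 to 64.3 CPM in females (median 40.9, n = 10) and 18.2 to 32.0 CPM in males (median 25.1, n = 8), which is 0.76 on the log2 scale, female over male (SE 0.15, adjusted p = 0.00041, edgeR). Ly6a was at 24.7 to 99.2 CPM in females (median 50.6) and 88.7 to 195.6 CPM in males (median 128), with -1.16 on the log2 scale (SE 0.19, adjusted p = 8.25e-05, edgeR). The ranges of both genes overlapped between the sexes. This comparison called 5977 of 14017 genes (42.6%), 21.5% higher and 21.1% lower in females, and 2 of 6 is no higher than that share. Sex and deposited table cannot be told apart, since each sex has a table of its own. The other 4 genes were not called, with log2 fold changes of 0.26 for Meis1 (SE 0.12, adjusted p = 0.0904), -0.11 for Kit (SE 0.11, 0.410), -0.54 for Cd34 (SE 0.27, 0.116) and -0.73 for Gata2 (SE 0.38, 0.133) by edgeR. In the same comparison 17 of 19 plasmacytoid dendritic cell genes and 11 of 16 early B cell genes were called higher in females, and 14 of 14 mature B cell genes lower in females, and their part in the differences of Flt3 and Ly6a was not tested.

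Lists of genes that work with the 6 were read in the same fits. Of all tested genes, 48.8% in females, 50.6% in males and 49.9% over both sexes had a positive log2 fold change. The counts of positive genes in these and later lists are to be read beside those shares. Counts at an unadjusted p under 0.05 are to be read beside 4.30%, 3.34% and 6.76%. Of the MEIS1 list, which holds the PBX and HOX partners and the MEIS relatives, 10 of 12 genes were tested, and 9 of 10 had a positive log2 fold change over both sexes (median 0.26, against -0.0005 for all genes). Meis3, a homologue of Meis1, rose. It had 3.82, 1.77, 3.98, 3.28 and 5.88 CPM in female del/del libraries, against 2.44, 1.90, 2.0, 1.17 and 2.09 CPM in female het libraries, and 7.81, 5.02, 8.24 and 6.83 CPM in male del/del libraries, against 3.39, 4.30, 4.12 and 4.06 CPM in male het libraries. Its groups did not overlap in males, and in females del/del library 2 alone lay within the het range. The log2 fold change over both sexes was 0.88 (SE 0.19, adjusted p = 0.0287, edgeR), and DESeq2 called it too. The call was near the threshold, being kept without female het library 1, female del/del library 1, 2 or 4, male het library 2 or male del/del library 2 and lost without any of the other 12 (log2 0.76 to 0.97 over all 18 such fits, adjusted p at most 0.0667). It was also lost with the plasmacytoid dendritic cell level as a covariate (0.64, SE 0.18, adjusted p = 0.283) and, by an alternative added after the data were seen, with the interferon level (0.88, SE 0.20, adjusted p = 0.0752, edgeR). Among the others, Pbx3, which encodes a DNA-binding partner of MEIS1, was at 0.46 (SE 0.14, adjusted p = 0.287, edgeR). In this list 1 of 10 was called over both sexes, where 0.556% of all tested genes were called, and 0 of 10 in either sex alone. An unadjusted p under 0.05 (edgeR) was held by 4 in females, 2 in males and 6 over both sexes. The shares of all tested genes with such a p were 4.30%, 3.34% and 6.76%.

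Among genes that act with GATA2 (TAL1, LMO2 and other blood factors), 0 of 11 were called in any genotype comparison by edgeR or DESeq2, with 2, 1 and 1 at an unadjusted p under 0.05 in females, males and both sexes. Over both sexes 2 of 11 were positive (median -0.07). Tal1, which encodes a basic helix-loop-helix factor of stem and erythroid cells, had 2.53, 1.69, 2.47, 2.17 and 2.34 CPM in female del/del libraries, against 1.88, 4.41, 2.54, 4.52 and 4.43 CPM in female het libraries, a log2 fold change over both sexes of -0.61 (SE 0.19, adjusted p = 0.318, edgeR). Of a wider list of stem cell genes, which shares Tal1, Erg and others with the GATA2 list, 25 of 35 genes were tested and 0 were called in females, males or both sexes by either tool, with 3, 1 and 2 at an unadjusted p under 0.05. Over both sexes 6 of 25 were positive (median -0.09). Angpt1, the TEK ligand angiopoietin 1, was at -0.45 (SE 0.14, adjusted p = 0.277) and the ETS factor gene Erg at -0.32 (SE 0.16, adjusted p = 0.751).

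Of receptor signalling genes (ligands, related receptors and the adaptors and phosphatases below FLT3 and KIT), 0 of 16, 18 and 19 tested were called in females, males and both sexes by either tool, with 0, 1 and 0 at an unadjusted p under 0.05, and the median log2 fold change over both sexes was 0.03. Of the other Ly6 family genes, 0 of 6, 7 and 7 tested were called by either tool, with 0, 0 and 1 at an unadjusted p under 0.05 and a median of 0.16. Over both sexes 5 of 7 were positive. Ly6k averaged 8.97 ± 10.2 CPM in female del/del libraries and 3.21 ± 2.87 CPM in female het libraries, and 4.99 ± 4.28 CPM in male del/del libraries and 1.98 ± 1.49 CPM in male het libraries (SD, n = 5, 5, 4 and 4), at 1.45 on the log2 scale over both sexes (SE 0.61, unadjusted p = 0.0276, adjusted p = 0.647, edgeR). Ly6c2 was at 0.31 (SE 0.21) and Lynx1 at -0.19 (SE 0.10). Ly6c1, which shares the most words with Ly6a, averaged 0.413 CPM in female del/del libraries and 0.434 CPM in female het libraries, and 4.21 CPM in male del/del libraries and 3.89 CPM in male het libraries. Of 6 genes for CD34 relatives, ligands and an adaptor, 0 of 5 tested were called in each comparison by either tool, and 0 of 5 had an unadjusted p under 0.05.

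Markers of other cells that carry these genes were read beside them. Of 19 plasmacytoid dendritic cell genes, 18 were positive in females and 18 in males, where 48.8% and 50.6% of all tested genes were positive. An unadjusted p under 0.05 (edgeR) was held by 3 in females, 8 in males and 9 over both sexes. The shares of all tested genes with such a p were 4.30%, 3.34% and 6.76%. The summed level of the list was 2588 to 3964 CPM in female del/del libraries and 2361 to 3475 CPM in female het libraries, and 1753 to 2191 CPM in male del/del libraries and 1769 to 2027 CPM in male het libraries, with overlap in both sexes and no defining marker at 0. This sum is weighted to its highest genes. In males Irf8 averaged 666 CPM in del/del and 602 CPM in het libraries, while Atp1b1 went the other way, at 404 and 511 CPM. Il3ra, the interleukin 3 receptor alpha chain, rose over both sexes (log2 0.55, SE 0.08, adjusted p = 0.00111, edgeR), and this call held in all 25 alternatives run. It was the only gene of the list called by edgeR; DESeq2 called it in each comparison and Pacsin1 in males. With the mean level of this list as a covariate the log2 fold change of Flt3 was -0.05 in females (SE 0.11), 0.51 in males (SE 0.17) and 0.13 over both sexes, and that of Ly6a was 0.73 in males (SE 0.17), beside 0.25 in females. The male values were thus at least as large with the covariate as without it, and the female values smaller, with a change of sign for Flt3.

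Of 18 interferon-induced genes, 17 were positive in females and 12 in males. An unadjusted p under 0.05 (edgeR) was held by 6 in females, 0 in males and 2 over both sexes. In these comparisons 1 was called, Ifi27l2a in females (log2 0.64, SE 0.11, adjusted p = 0.0301, edgeR). DESeq2 called Oas2 besides it. The call was kept without female het library 2 or female del/del library 3 or 5 and lost without any of the other 7 (adjusted p at most 0.122). It was lost too with all 18 libraries in 1 fit (adjusted p = 0.782) and with the mast cell and basophil level (0.0885) or the interferon level (0.147) as a covariate, by edgeR. Their summed level was 2143 to 2701 CPM in female del/del libraries and 2131 to 2557 CPM in female het libraries, and 2355 to 2577 CPM in male del/del libraries and 2322 to 2730 CPM in male het libraries. With the interferon level as a covariate, a setting added after the data were seen, Ly6a was at 0.60 in males (SE 0.15), against the change of sign in females given above, and Flt3 at -0.05 in females (SE 0.25) and 0.52 in males (SE 0.10).

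For mature B cell genes 14 of 14 were positive in females and 12 of 14 in males, and for early B cell genes 0 of 16 in either sex. Of all tested genes, 48.8% were positive in females and 50.6% in males. By edgeR and DESeq2 0 of either list were called. At an unadjusted p under 0.05 there were 7 early B cell genes in males, 4 over both sexes and none in females. No mature B cell gene had such a p in any comparison. The shares of all tested genes with such a p were 4.30% in females, 3.34% in males and 6.76% over both sexes. Mature B cell genes summed to 6081 to 13602 CPM in female del/del libraries and 7240 to 10400 CPM in female het libraries, and to 15361 to 20621 CPM in male del/del libraries and 14848 to 19874 CPM in male het libraries. Early B cell genes summed to 4015 to 6768 CPM in female del/del libraries and 5934 to 6344 CPM in female het libraries, and to 2690 to 3771 CPM in male del/del libraries and 3632 to 4634 CPM in male het libraries. B identity genes, shared by both stages, were positive for 4 of 9 in females and 1 of 9 in males. The part of these stages in the values of Ly6a, Flt3 and Kit was not tested.

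Mast cell and basophil genes were read because KIT and GATA2 are used in mast cells. Of these 15 genes, 9 passed the filter over both sexes, 0 were called by edgeR or DESeq2 and 0 had an unadjusted p under 0.05. The mast cell proteases Mcpt1, Mcpt2 and Mcpt4 had 0 reads in all 18 libraries. Mcpt8, Prss34 and Cpa3 of the same list had reads in every library, with group means of 2.73 to 5.85, 4.62 to 13.1 and 1.03 to 3.33 CPM (Mcpt1, Mcpt2, Mcpt4 and Mcpt8 were named after their values were seen). The summed level of the list was 10.7 to 50.6 CPM in female del/del libraries and 13.4 to 46.5 CPM in female het libraries, and 23.8 to 68.5 CPM in male del/del libraries and 21.7 to 66.8 CPM in male het libraries. Erythroid genes were positive for 0 of 14 in both sexes and summed to 169 to 276 CPM in female del/del libraries and 158 to 670 CPM in female het libraries, and to 253 to 391 CPM in male del/del libraries and 208 to 1161 CPM in male het libraries. By edgeR 0 of 14 erythroid genes were called in females, males or over both sexes. An unadjusted p under 0.05 was held by 10 in females, 1 in males and 11 over both sexes. The shares of all tested genes with such a p were 4.30%, 3.34% and 6.76%. The median log2 fold change of the list was -0.79 in females and -0.64 in males. DESeq2 called 2 of 14 lower in females and over both sexes, Slc4a1 among them, and 0 in males. Of megakaryocyte, endothelium and stroma, myeloid, and T and NK cell genes 0 were called in any genotype comparison by either tool. Their numbers of positive genes over both sexes were 4 of 8, 2 of 8, 11 of 14 and 4 of 12, with 2, 1, 0 and 6 at an unadjusted p under 0.05. Myeloid genes summed to 999.7 to 4986 CPM in female del/del libraries and 1494 to 3541 CPM in female het libraries, and to 1880 to 5885 CPM in male del/del libraries and 1776 to 3437 CPM in male het libraries. With the mast cell and basophil level as a covariate, a setting added after the data were seen, the log2 fold change of Gata2 was 0.13 in females (SE 0.36), a change of sign, and -0.30 in males (SE 0.38). That of Cd34 was -0.27 in females (SE 0.37) and -0.19 in males (SE 0.20), and that of Kit 0.05 in females (SE 0.17) and -0.28 in males (SE 0.11). With the plasmacytoid dendritic cell level Gata2 was at -1.35 in males (SE 0.61) and Cd34 at -0.75 (SE 0.31), and with the interferon level Cd34 was at -1.46 in females (SE 0.57), none of them called by edgeR. The part of erythroid, megakaryocyte, endothelial, stromal, myeloid, T and NK cells in the values of Kit, Cd34 and Gata2 was not tested.

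Within groups the 6 genes did not vary as 1 set. With group means taken off, log2 CPM of Cd34 and Gata2 went together over the 18 libraries (Pearson r = 0.783, Spearman rho = 0.682), with r = 0.804 over the 10 female and 0.806 over the 8 male libraries, and 0.653 without female del/del library 2. Flt3 and Ly6a did so too (r = 0.754, rho = 0.637, with 0.764 in females, 0.707 in males and 0.691 without that library). Cd34 and Kit had r = 0.686, and 0.558 without it. Cd34 and Ly6a had r = 0.655, but 0.802 in females and -0.246 in males, and 0.320 without female del/del library 2. Meis1 had r between -0.03 and 0.20 with the other 5 over all 18 libraries, made up of 0.256 to 0.640 in females and -0.607 to -0.104 in males. The points of each pair share a library and its depth, and these values are a description only.

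**Figure D3:**
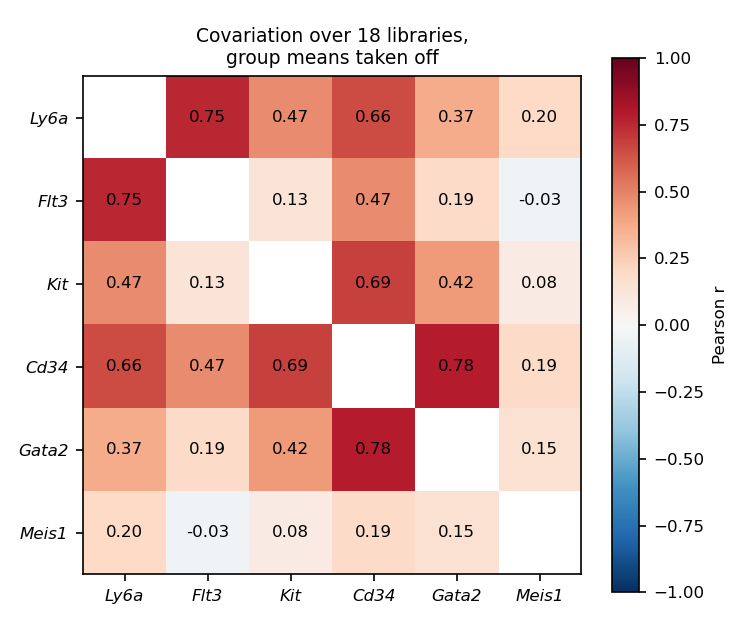
Pearson r between the 6 genes over 18 libraries after the mean of each sex and genotype group was taken off log2 CPM (colour scale from -1 to 1, values printed). The highest values are those of Cd34 with Gata2 (0.78) and Flt3 with Ly6a (0.75), and those of Meis1 lie between -0.03 and 0.20.

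The genes most like each of the 6, among 12634 genes of at least 1 CPM by the same measure, differed between them. Flt3 was followed most closely by Nceh1 (r = 0.955), Gm11775 (0.918), A430084P05Rik (0.912), Irf8 (0.911), a transcription factor gene of dendritic and B cells, and Cd7 (0.911). Ly6a was followed by Ahcyl2 (0.956), Atxn1 (0.915), Golm1 (0.906) and Cyp4v3 (0.905). By Spearman rho these neighbours of Ly6a were at 0.839, 0.756, 0.746 and 0.771. In the plasmacytoid dendritic cell list, the mean of all genes had r = 0.754 with Flt3 and 0.474 with Ly6a, and the mature B cell list had 0.702 and 0.787. The T and NK cell list had 0.836 with Flt3 and 0.760 with Ly6a, and the early B cell list -0.570 and -0.346. Without female del/del library 2, Flt3 had 0.711 with the plasmacytoid dendritic cell list and 0.600 with the mature B cell list. It had 0.797 with the T and NK cell list and -0.555 with the early B cell list. Ly6a then had 0.336, 0.647, 0.735 and -0.313 with the same lists.

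Cd34 and Gata2 shared neighbours. Cd34 was nearest to Kel (r = 0.885), Clec4a2 (0.879), Clec4d (0.877), Metrnl (0.860) and Fut7 (0.855), and Gata2 to Cpa3 (0.848), the mast cell carboxypeptidase gene, Clec4d (0.834), Igsf6 (0.832), Cldn15 (0.823) and Clec4a2 (0.820). The mast cell and basophil list had r = 0.801 with Gata2 and 0.681 with Cd34, and the myeloid list 0.704 and 0.691. Kit was nearest to Gclm (0.795), Ttc39c (0.780), Ero1l (0.767), Epb4.2 (0.760), an erythrocyte membrane protein gene, and Nup43 (0.756). The r of Kit was 0.244 with the mast cell and basophil list, 0.205 with the early B cell list and 0.377 with the erythroid list. Meis1 was nearest to C130036L24Rik (0.802), Dab2ip (0.772), Cacna1a (0.765), Rab31 (0.741) and Fcrl6 (0.740), and its r with the list of its own PBX and HOX partners was 0.311. With the wider stem cell list, r was 0.796 for Cd34 and 0.740 for Gata2, and 0.371 to 0.493 for the other 4. Without female del/del library 2 these were 0.724 for Cd34, 0.643 for Gata2, 0.188 for Flt3, 0.249 for Kit, 0.225 for Ly6a and 0.309 for Meis1. The r of Kit was then 0.0308 with the mast cell and basophil list and 0.344 with both the early B cell and the erythroid list.

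**Figure D4:**
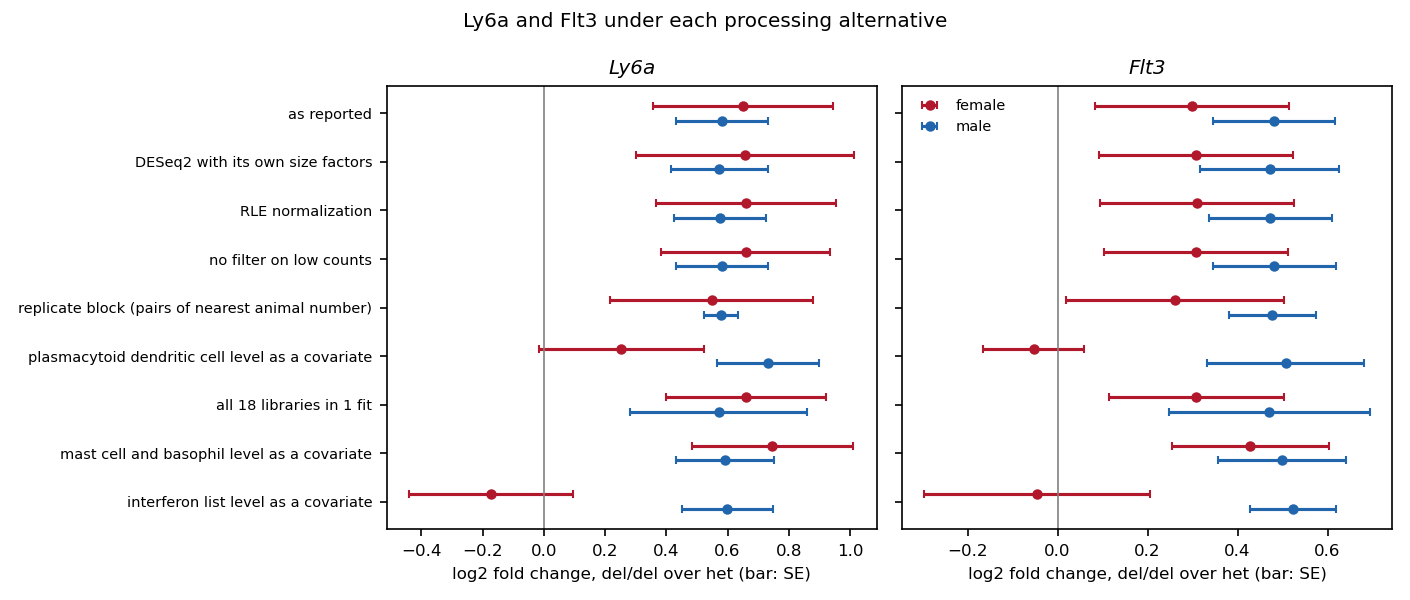
Log2 fold change of Ly6a (left) and Flt3 (right), del/del over het, in females and males under each alternative other than leaving out a library (bars: SE). The male values lie between 0.57 and 0.73 for Ly6a and 0.47 and 0.52 for Flt3, while the female values with the plasmacytoid dendritic cell or interferon level as a covariate drop to 0.25 and -0.17 for Ly6a and -0.05 and -0.05 for Flt3.

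Without female del/del library 2, the female log2 fold changes, del/del over het, were 0.87 for Ly6a, 0.43 for Flt3 and 0.10 for Gata2, against 0.65, 0.30 and -0.19 with all libraries, and none was called by edgeR. This library was singled out for its low levels and was the lowest of its group for each of these genes. Leaving it out therefore raised the values by construction, and nothing is concluded from the rise.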

How the data were processed

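Raw counts per gene were deposited by the authors in 1 table for each sex, with the builds mm10 and GRCm38 and the tools bcl2fastq, FastQC, Trim Galore, TopHat and edgeR 3.32.1 named in the submitters' processing notes. The counting program and its use of strand are not given in the sources used here. The 4 columns of group mean signal deposited by the authors were not used. The authors' deposited tables of each sex hold log2 fold changes, an F score and p-values, and single values from them are named as such.

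Counts were tested with edgeR 4.0.16 in R 4.3.3 (filterByExpr with a minimum count of 10 and total of 15, TMM scaling, quasi-likelihood test, Benjamini-Hochberg adjustment over all genes tested, threshold 0.05). Each sex was fitted alone, and both together with sex as a covariate. SE is the log2 fold change divided by the square root of F. The 95% intervals are for the log2 fold change itself. Their width takes in the spread between animals, but they do not give the range of single animals. Of 25965 rows, 56 carry no gene ID, and 24990 IDs were found in GENCODE M21, which gave exon lengths and sequences. DESeq2 1.42.0, RLE scaling, no filter, a replicate block, covariates and leaving out each library were alternatives. The fits were tested on simulated data.

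The text names the 6 genes, Smchd1, up to 3 genes of each list with the smallest p, and for each of the 6 genes the 5 most like it by Pearson r of log2 CPM (prior count 2); a few genes that this rule names are not reported here. Genes outside the rule (Procr, Mecom, Fgd5, Slamf1, Hlf, Cd79a, Flt3l, Kitl, Ly6c1, Ly6i, Atp1b1, Mcpt8 and mast cell proteases) were chosen after their values were seen. The lists are stem cell genes, MEIS1 partners, GATA2 partners, receptor signalling, Ly6 family, CD34 family and ligands, early, general and mature B cell, plasmacytoid dendritic cell, mast cell and basophil, megakaryocyte, erythroid, endothelium and stroma, myeloid, T and NK cell, and interferon genes. The members and lists were chosen with earlier results of these data known. The block joined del/del and het animals of nearest number within a sex. The correlation of deviations was 0.133, 0.210, 0.105 and 0.330 in the 4 male pairs, and -0.042 to 0.283 in the 5 female pairs.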

Additional observations from a re-analysis of the deposited data

Results flagged for a closer look

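In 3 of 24 sets of libraries (6 genes in 4 groups), 1 library lay far from the others of its group, by the gap to its nearest neighbour as a share of the whole range. Chance marks about 1 in 20 such groups. Cd34 in female del/del library 2 was at 0.633 CPM, the lowest of its group (share 0.724). Ly6a in male del/del library 4 was at 194.2 CPM, the highest of its group (share 0.843). Gata2 in male het library 3 was at 1.68 CPM, the lowest of its group (share 0.873).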

How the results depend on the processing

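Of 390 values of the 6 genes under an alternative, 373 kept their direction and side of the threshold, 15 changed sign and 2 passed the threshold. With the replicate block, Ly6a in males passed (0.58, adjusted p = 0.0311, edgeR), and no other call among the 6 genes changed. Ly6a over both sexes passed without female del/del library 2 (0.73, range over all 18 libraries left out 0.54 to 0.73). In females, signs changed with the plasmacytoid dendritic cell level for Flt3 (-0.053), with the mast cell level for Gata2 (0.13), and with the interferon level for Flt3 (-0.045), Kit (-0.20) and Ly6a (-0.17); the last 2 covariates were chosen after seeing the data, and the cause was not tested. Leaving out 1 library changed signs for Kit in females (-0.071 to 0.11), Gata2 in females (-0.47 to 0.10), Meis1 in males (-0.10 to 0.18) and Gata2 in males (-1.02 to 0.067). The count of genes called was 115 with DESeq2 and 58 with all 18 libraries in 1 fit in females, against 34. In males it was 46 with DESeq2, 5 with the plasmacytoid dendritic cell level and 5 to 22 without 1 library, against 16. Over both sexes it was 135 with DESeq2, against 78, and for the interaction 3 with DESeq2, against 0. For Gata2, at 5 to 112 reads, the spread between animals was above counting error in each group (90.3% against 18.2% in male del/del libraries).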
